A study of Apis mellifera with 2 samples.

Results

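The honey bee genome encodes the dopamine receptors Dop1, Dop2 and Dop3, and the RNA of all 3 was followed here in the nuclei of forager brains. The members were taken by name from both count matrices, as 3 of the 12245 genes listed for both libraries. Dop2 stands there under the symbol DopR2, for which RefSeq gives Dop2 as a synonym. The BRC library came from foragers exposed to bromocriptine, a drug that activates dopamine receptors of the D2-like class, and the ddH2O library from foragers given water alone. The bees were Apis mellifera carnica workers returning to the hive with pollen. The sample titles call the bees fed, while the treatment label gives a spray on the body and the study's methods describe a spray of whole colonies on several days. The design text gives 15 foragers per group and the study's methods a larger pool from several colonies. The brains of each condition were pooled into 1 library, and the labels give no age, so colony, preparation and treatment cannot be told apart.

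Dopamine acts in insects through G protein-coupled receptors. Dop1 is a D1-like receptor that raises cAMP, Dop2 is an invertebrate type of receptor that also couples to a rise in cAMP, and Dop3 is the D2-like receptor, which lowers cAMP and is the class that bromocriptine addresses. In the insect brain dopamine is known for its part in learning, where it reaches the Kenyon cells, the intrinsic neurons of the mushroom bodies.

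Dop1 lies on linkage group 15 of the assembly Amel_HAv3.1, from 7337783 to 7381156, and has 4 RefSeq transcripts over 43374 bases. Dop2 lies on the same linkage group from 6339308 to 6402471, 935312 bases from Dop1, with 4 transcripts over 63164 bases. Dop3 lies on linkage group 9 from 10181294 to 10324139, with 5 transcripts over 142846 bases. All 3 spans overlap other annotated genes. The lncRNAs LOC102654376 and LOC113219284 overlap Dop1, the protein-coding gene LOC107965601 overlaps Dop2, and the lncRNA LOC102654507 overlaps Dop3. In the nuclei kept, LOC102654507 held 12529 UMIs (unique molecular identifiers, each marking a captured RNA molecule) in BRC and 30908 in ddH2O, against 11290 and 28457 for Dop3 itself. LOC113219284 held 716 in BRC and 1385 in ddH2O, against 3919 and 13607 for Dop1, and LOC107965601 held 28 and 37, against 2469 and 10222 for Dop2. The reference table gives no strand, so how reads were divided between each receptor and its overlapping genes was not tested.

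The BRC matrix summed to 76531513 UMIs and the ddH2O matrix to 77047419, over 20000 barcodes each, and 120 barcode sequences occurred in both. After filters and removal of likely doublets, 15896 BRC and 16716 ddH2O nuclei remained, and the median nucleus held 1865 UMIs in BRC against 3155 UMIs in ddH2O. They formed 29 clusters, of which 6 were called neurons by pan-neuronal markers and 8 glia by repo, a transcription factor of glia. Of the neuron clusters, 1 and 2 were called KC-like from the Kenyon cell markers PLCe, trio and mub. In both libraries all 3 lay above the mean of the library's other clusters. A marker is called raised here and below only where it passed a stricter limit over that mean. By that limit all 3 were raised in cluster 1 of BRC and in cluster 2 of ddH2O. PLCe and mub were raised in cluster 2 of BRC, and PLCe alone in cluster 1 of ddH2O. Neurons numbered 4195 in BRC, 26.4% of its nuclei, and 9202 in ddH2O, 55.0%. KC-like nuclei numbered 2352 in BRC and 4023 in ddH2O, other neurons 1843 and 5179, glia 2671 and 6104, and nuclei in neither class 9030 and 1410. PLCe RNA was also found in glia, at 1.49% of its KC-like level in BRC and 32.2% in ddH2O. The part of Kenyon cell RNA found outside Kenyon cells in the values below was not tested, and PLCe is given beside them.

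Dop1 RNA was highest in KC-like nuclei in both libraries. Levels are CPM (UMIs of a gene per 1000000 UMIs of all genes, summed over the nuclei of a class), and the 95% intervals in parentheses cover counting error only. In KC-like nuclei Dop1 stood at 604 CPM (580 to 628) in BRC and 429 CPM (417 to 440) in ddH2O. Other neurons had 99.6 CPM in BRC and 177 CPM in ddH2O, glia 39.5 and 174, and nuclei in neither class 31.7 and 190. KC-like nuclei, 14.8% of all in BRC, held 64.2% of that library's Dop1 UMIs, and in ddH2O they were 24.1% of all and held 40.4%. Within BRC the KC-like level was 15.3-fold (13.4 to 17.6) that of glia, and within ddH2O 2.47-fold (2.37 to 2.57). KC-like nuclei thus had the highest Dop1 level of the 4 classes in each library, by a larger factor in BRC.

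Among single clusters with at least 100 nuclei, Dop1 spanned 7.88 to 644 CPM over the 20 clusters of BRC and 87.4 to 546 CPM over the 17 clusters of ddH2O. The order of the KC-like clusters differed between the libraries. Cluster 2, the one higher in PLCe, stood at 583 CPM in BRC and 546 CPM in ddH2O. Cluster 1, whose leading genes in BRC were PLCe and the neuropeptide gene Tk, stood at 644 CPM in BRC and 384 CPM in ddH2O. Cluster 2 over cluster 1 was thus 0.906-fold (0.834 to 0.984) in BRC but 1.42-fold (1.34 to 1.503) in ddH2O. After the KC-like clusters came cluster 8, with Stg-1 among its 10 leading genes, and cluster 0, with Glurb among them, at 127 and 115 CPM in BRC, whereas these clusters had 152 and 189 CPM in ddH2O. Most neighbours in the order were not separable. Of the 19 pairs of neighbouring clusters in BRC, 3 had a ratio whose interval lay above 1, and of the 16 pairs in ddH2O also 3. In ddH2O these were cluster 2 over cluster 1, cluster 1 over the glial cluster 10, and cluster 8 over the glial cluster 9, and the 14 clusters from cluster 10 down to cluster 8 spanned only 152 to 237 CPM. Dop1 was also among the 10 leading genes of cluster 1 in ddH2O, although it was kept out of the genes used for clustering.

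Dop2 RNA followed the same order of classes at the top. KC-like nuclei had 356 CPM (338 to 375) in BRC and 301 CPM (291 to 310) in ddH2O. Other neurons had 63.5 CPM in BRC and 141 CPM in ddH2O, and glia 32.2 and 129. KC-like nuclei held 60.1% of the Dop2 UMIs in BRC and 37.7% in ddH2O, and their level was 11.04-fold (9.50 to 12.9) that of glia in BRC and 2.32-fold (2.21 to 2.44) in ddH2O. Between the KC-like clusters the order was the same in both libraries. Cluster 2 had 377 CPM in BRC and 359 CPM in ddH2O, and cluster 1 had 315 and 279, a ratio of 1.197 (1.07 to 1.34) in BRC and 1.29 (1.204 to 1.38) in ddH2O. Of the 19 neighbouring pairs in BRC, 2 were separable, this one and cluster 1 over cluster 8. In ddH2O 3 of 16 were, cluster 21 over cluster 1, cluster 1 over the glial cluster 14, and cluster 18 over the glial cluster 9.

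Outside the named classes, Dop2 was high in a cluster of each library. Cluster 24, an unnamed group of 93 BRC nuclei, reached 255 CPM (217 to 297) from 161 UMIs, so that 0.585% of the BRC nuclei held 6.52% of the Dop2 UMIs. The same nuclei had 23.7 CPM of Dop1 and 68.0 CPM of Dop3, and 80.6 CPM of PLCe, so the high value was found for Dop2 and not for the other receptors or PLCe. After thinning to 1000 UMIs, 24.7% (16.4 to 34.8) of these nuclei had a Dop2 UMI. None of the 4 pan-neuronal markers was raised there, and of the glial markers only Mdr49 and Tret1, which mark the surface glia of the blood-brain barrier, were. The glial gene repo stood at 0.72 of the median cluster. Mdr49 and Tret1 were also both raised in clusters 3, 7 and 15 of BRC, which are in neither class. Cluster 24 also raised hth, Hex70c and TpnCIIIa, listed for optic lobe cells, fat body and muscle. Cluster 21 had the troponin gene TpnI among its 10 leading genes in both libraries and TpnT in BRC, with all 4 pan-neuronal markers raised in BRC and brp alone in ddH2O. It had 105 CPM (55.9 to 180) of Dop2 over 53 nuclei in BRC and 320 CPM (284 to 359) over 233 nuclei in ddH2O. There Dop2 was close to its KC-like level in ddH2O, while PLCe stood at 3335 CPM, against 11889 CPM in KC-like nuclei of that library.

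Dop3 RNA was higher in glia than in other neurons in both libraries. KC-like nuclei had 1509 CPM (1472 to 1547) in BRC and 769 CPM (754 to 785) in ddH2O, and glia 560 CPM (541 to 579) in BRC and 498 CPM (489 to 507) in ddH2O. Other neurons had 210 CPM in BRC and 310 CPM in ddH2O. Glia, 16.8% of the nuclei in BRC and 36.5% in ddH2O, held 29.5% of the Dop3 UMIs in BRC and 39.5% in ddH2O. The ddH2O share was thus close to their share of nuclei. All neurons over glia was 1.55-fold (1.49 to 1.61) in BRC and 1.002-fold (0.978 to 1.03) in ddH2O. The KC-like level was 2.70-fold (2.59 to 2.81) that of glia in BRC and 1.55-fold (1.504 to 1.59) in ddH2O. The glial level of Dop3 was 37.1% of the KC-like level in BRC and 64.7% in ddH2O, against 6.54% and 40.5% for Dop1 and 9.05% and 43.0% for Dop2.

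The glial clusters differed widely in Dop3. Cluster 9 had 1307 CPM (1240 to 1376) in BRC and 740 CPM (719 to 762) in ddH2O, the highest glial value in each library. In ddH2O it was not separable from cluster 23, found there alone, with 709 CPM (a ratio of 1.04, 0.951 to 1.15). Of the listed cortex glia markers, zyd, a cation exchanger of cortex glia in Drosophila, was raised in clusters 9, 10 and 12 of both libraries. It was also raised in 14 and 26 of BRC and in 23 of ddH2O. The other, wrapper, was not among the 55 of 61 listed markers that were matched in the data. The astrocyte marker Gat-1B was also raised in clusters 9, 10 and 12 of both libraries, as it was in clusters 5 and 14. The ensheathing glia marker Ldgf4 was raised in clusters 10 and 12 of BRC and in 9 and 23 of ddH2O. Mdr49 and moody, listed for surface glia, were raised in cluster 9 of ddH2O. These clusters were therefore given no glial type. In BRC cluster 9 was followed by cluster 10 with 906 CPM and cluster 12 with 624 CPM, and these had 570 and 478 CPM in ddH2O. The Gat-a-led cluster 5, with a transporter for the transmitter GABA, had 242 CPM in BRC and 382 CPM in ddH2O, so cluster 9 was 5.40-fold (4.78 to 6.12) above it in BRC and 1.94-fold (1.84 to 2.04) in ddH2O. Cluster 14, with ebony among its leading genes, had 162 and 392 CPM, and cluster 6, with the barrier markers Tret1 and vkg, 45.4 and 290 CPM. For Dop1 in BRC, cluster 9 also had the highest level of the glial clusters with at least 100 nuclei, at 51.4 CPM. It was not separable there from cluster 10 with 44.7 CPM (a ratio of 1.15, 0.770 to 1.73). Cluster 9 showed no such maximum for Dop2 in either library or for Dop1 in ddH2O. Its Dop2 level was 0.392-fold (0.210 to 0.673) that of all glia in BRC and 0.463-fold (0.414 to 0.516) in ddH2O, and its Dop1 level 1.30-fold (0.958 to 1.75) in BRC and 0.504-fold (0.460 to 0.551) in ddH2O.

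Among neurons, Dop3 separated cluster 2 from cluster 1, and cluster 8 from cluster 0, more sharply than Dop1 or Dop2 did. Cluster 2 had 1971 CPM in BRC and 1096 CPM in ddH2O, and cluster 1 had 598 and 647, a ratio of 3.29 (3.06 to 3.55) in BRC and 1.69 (1.63 to 1.76) in ddH2O. Cluster 8 had 565 CPM in BRC and 486 CPM in ddH2O, against 113 and 217 CPM in cluster 0, so it was 5.01-fold (4.31 to 5.83) higher in BRC and 2.24-fold (2.11 to 2.38) in ddH2O. For Dop1 the same ratio of cluster 8 over cluster 0 was 1.11 (0.886 to 1.38) in BRC against 0.804 (0.738 to 0.876) in ddH2O. Over all clusters with at least 100 nuclei, Dop3 spanned 3.22 to 1971 CPM in BRC and 217 to 1096 CPM in ddH2O, and 8 of 19 neighbouring pairs in BRC and 5 of 16 in ddH2O were separable. Dop3 has the most UMIs of the 3, which narrows its intervals. The highest level over the lowest was 613-fold for Dop3 in BRC, against 81.8-fold for Dop1 and 68.5-fold for Dop2. In ddH2O it was smallest for Dop3, 5.04-fold against 6.25-fold and 5.99-fold. The overlapping lncRNA LOC102654507 moved partly with Dop3. It had 1581 CPM in glia and 306 CPM in KC-like nuclei of BRC, and 1146 and 154 CPM in ddH2O, the opposite order of Dop3 in these classes, and Pearson's r with Dop3 was 0.85 over 20 clusters in BRC and 0.54 over 17 in ddH2O.

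**Figure D1:**
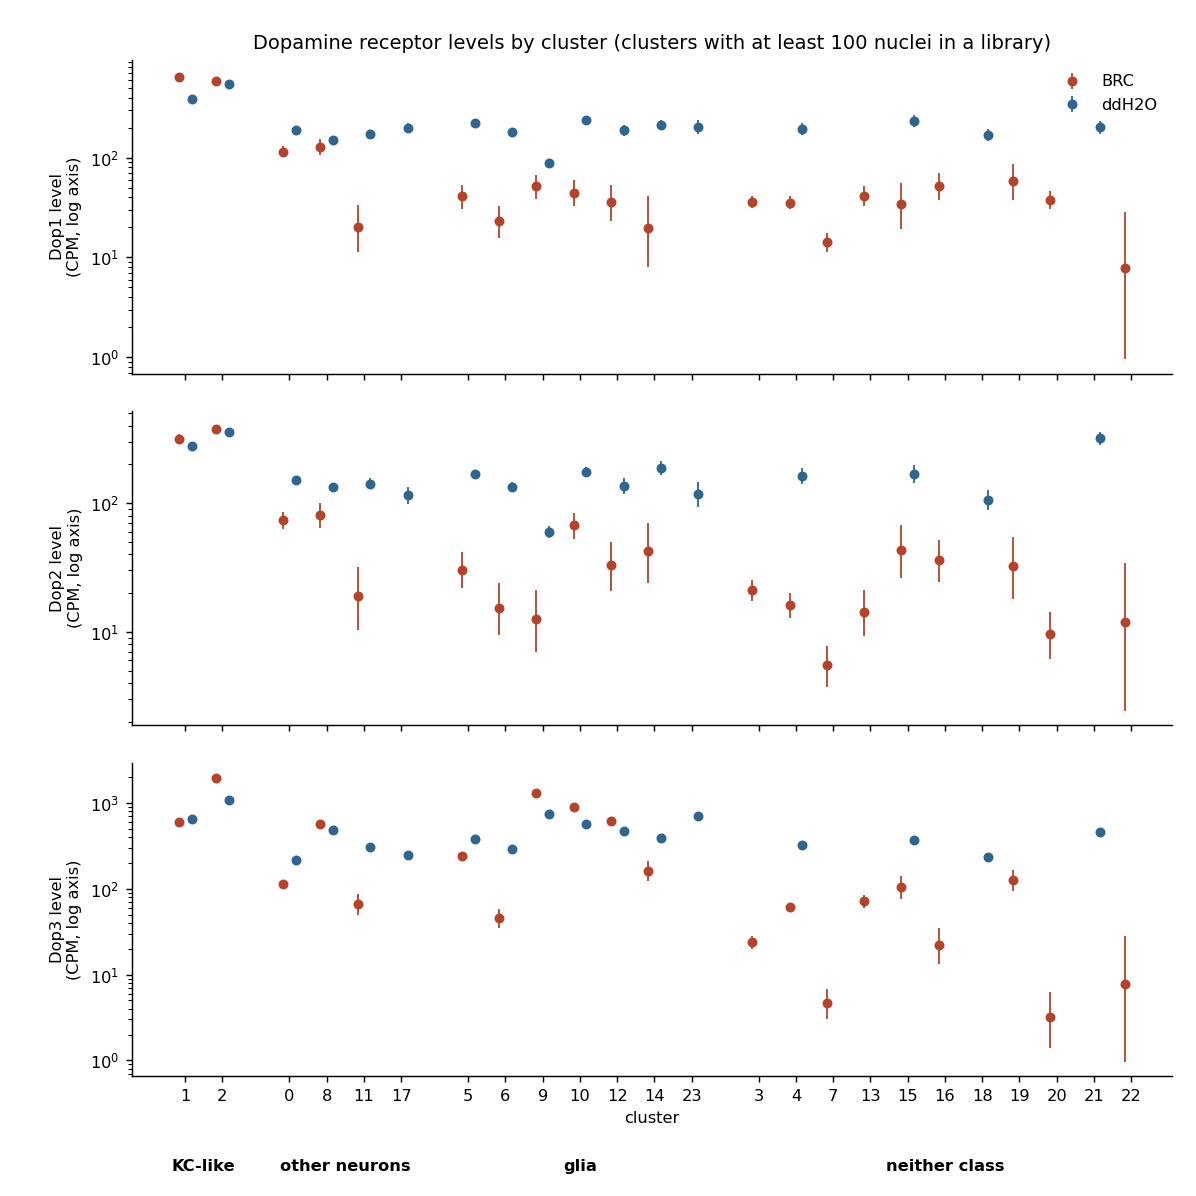
Levels of Dop1, Dop2 and Dop3 (CPM, log axis) in each cluster with at least 100 nuclei in a library, BRC left of ddH2O, with bars for exact Poisson 95% intervals. The KC-like clusters 1 and 2 are highest for Dop1 and Dop2 in BRC, Dop3 is also high in the glial clusters 9, 10 and 12, and the ddH2O points span a narrower range than the BRC points.

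Most BRC clusters in neither class were low in all receptors. Over the 9 of them with at least 100 nuclei, Dop1 spanned 7.88 to 58.3 CPM, Dop2 5.50 to 43.3 CPM and Dop3 3.22 to 126 CPM. The smaller cluster 21 stood apart with 137 CPM (80.0 to 220.0) of Dop1 and 251 CPM (170.2 to 356) of Dop3 beside its 105 CPM of Dop2. Cluster 24 did with its 255 CPM of Dop2. Cluster 21 was left unnamed. In BRC it raised 4 of the 7 listed muscle markers, with Mhc, up and Prm not matched in the data. It also raised 5 of 7 photoreceptor markers, 3 of 6 fat body markers, VAChT, and the olfactory projection neuron markers acj6 and oaz. In ddH2O it raised 2 muscle markers. Cluster 4 of BRC, called photoreceptor-like because all 7 photoreceptor markers were raised, had 35.3 CPM of Dop1, 16.03 CPM of Dop2 and 60.8 CPM of Dop3. The 341 ddH2O nuclei matched to it had 194, 163 and 322 CPM, but only 4 of the 7 markers were raised there. Cluster 20 of BRC was left unnamed. It raised 3 of the 7 hypopharyngeal gland markers, Hbg3, Mrjp3 and Mrjp4, but clusters 16 and 27 of BRC raised 4. It had 37.8 CPM of Dop1, 9.65 CPM of Dop2 and 3.22 CPM of Dop3. Cluster 7 of BRC, with FAR1 and the corazonin receptor gene Crzr among its 10 leading genes, had 14.2, 5.50 and 4.61 CPM. All of the levels of clusters 4, 7 and 20 lay below the KC-like levels of the same library, and no ddH2O cluster could be set beside clusters 7 and 20.

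The receptors were also counted against PLCe. Per 100 PLCe UMIs, KC-like nuclei held 2.46 Dop1 UMIs in BRC and 3.605 in ddH2O, and glia held 10.8 in BRC and 4.54 in ddH2O. Glia over KC-like nuclei was thus 4.38-fold (3.82 to 5.01) in BRC against 1.26-fold (1.21 to 1.31) in ddH2O. For Dop2 the same ratio was 6.07-fold (5.20 to 7.06) in BRC against 1.34-fold (1.27 to 1.40) in ddH2O. All of these intervals lay above 1. The KC-like clusters were chosen in part for high PLCe, which favours ratios above 1 in any other class. These ratios therefore cannot decide what glia hold of their own. Other neurons gave 6.60 for Dop1 and 7.14 for Dop2 in BRC, and 1.72 and 1.96 in ddH2O. Nuclei in neither class gave 5.31 and 6.32 in BRC, and 1.36 and 1.76 in ddH2O. For Dop3 the ratio of glia over KC-like nuclei was 24.9-fold (23.8 to 25.9) in BRC against 2.01-fold (1.96 to 2.07) in ddH2O. Other neurons gave 5.57 in BRC and 1.68 in ddH2O, and nuclei in neither class 2.26 and 1.33.

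The clusters of ddH2O differed in these proportions. Over the 17 with at least 100 nuclei, Dop1 per 100 PLCe UMIs spanned 3.34 in cluster 2 to 7.11 in cluster 8, and Dop2 2.20 in cluster 2 to 9.58 in cluster 21. In the glial clusters 5, 6, 10, 12 and 14 of ddH2O, Dop1 per 100 PLCe UMIs lay between 3.90 and 4.42 and Dop2 between 3.07 and 3.47. Dop3 lay between 7.08 and 7.64 in clusters 5, 6 and 14, against 6.47 in KC-like nuclei. It reached 47.0 in cluster 9, 24.7 in cluster 23, 22.8 in the neuronal cluster 8, 13.99 in cluster 21, and 10.6 and 10.8 in clusters 10 and 12. In BRC, Dop3 per 100 PLCe UMIs was 543 in cluster 9, 256 in cluster 10 and 172 in cluster 12. The glial clusters highest in Dop3 in BRC, 9, 10 and 12, thus also lay above clusters 5, 6 and 14 in ddH2O.

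**Figure D2:**
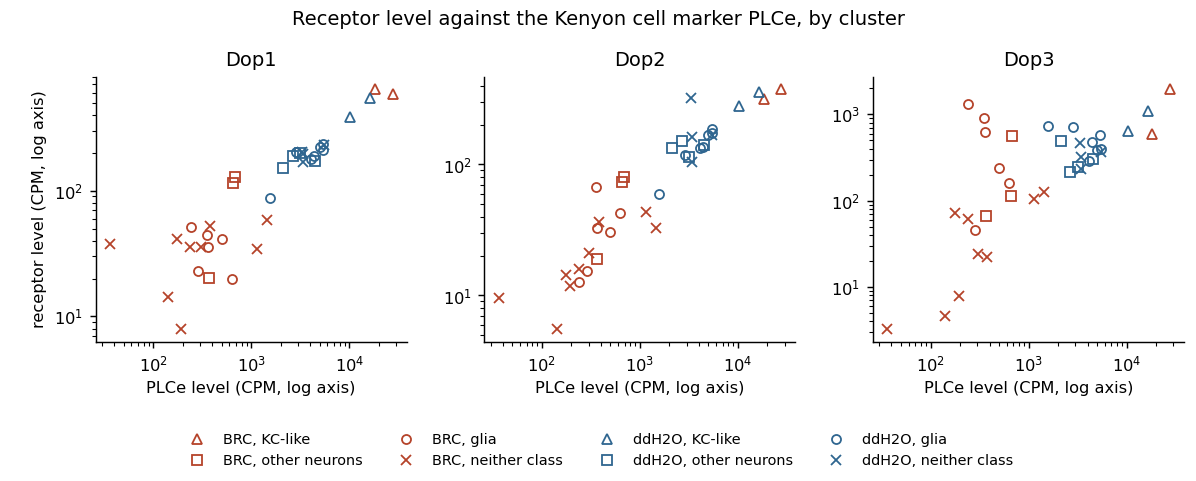
Level of each receptor against the level of PLCe, a Kenyon cell marker, both in CPM on log axes, with 1 point per cluster and library and symbols for the class. The KC-like clusters 1 and 2 are highest in PLCe in each library. Dop3 is highest in the KC-like cluster 2, with 1971 CPM in BRC and 1096 CPM in ddH2O. The glial cluster 9 comes next, with 1307 CPM in BRC and 740 CPM in ddH2O, at 241 and 1573 CPM of PLCe.

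Other neurons were also split by their transmitter genes, which were counted per nucleus. Nuclei with a UMI of Vmat, the vesicular transporter of monoamines, and none of VAChT or VGlut had 421 CPM (347 to 508) of Dop3 in BRC, over 124 nuclei, and 441 CPM (397 to 488) in ddH2O, over 238 nuclei. Nuclei with VAChT alone, the marker of acetylcholine release, had 139 CPM (113 to 169) in BRC and 273 CPM (259 to 288) in ddH2O. Nuclei with VGlut alone, the marker of glutamate release, had 193 CPM (154 to 239) and 324 CPM (301 to 348). Dop3 was thus highest in the Vmat nuclei of each library, with no overlap of the intervals. A single UMI placed a nucleus, and Vmat RNA was also found in glia, at 188 CPM in BRC and 92.6 CPM in ddH2O. Cluster 8, higher in Dop3 than cluster 0, was also higher in Vmat, with 110 against 56.9 CPM in BRC and 59.0 against 28.4 CPM in ddH2O. The split was not made within clusters, so whether it goes beyond this difference was not tested. Dop2 ran the other way between Vmat and VAChT nuclei. It had 34.2 CPM (15.6 to 64.9) in BRC and 104 CPM (83.4 to 128) in ddH2O in Vmat nuclei. In VAChT nuclei it had 81.7 CPM (62.3 to 105) and 160 CPM (149 to 171), although the BRC intervals overlap. In VGlut nuclei Dop2 had 49.9 CPM (31.3 to 75.6) in BRC and 137 CPM (122 to 153) in ddH2O, and the intervals overlap those of Vmat nuclei in each library. The Dop1 intervals of these nuclei overlapped, with 91.1 and 83.1 CPM in Vmat and VAChT nuclei of BRC and 168 and 182 CPM in ddH2O.

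Shares of nuclei with a UMI were taken after each nucleus was thinned to 1000 UMIs, because the libraries differ in depth. Of KC-like nuclei, 42.8% (40.8 to 44.8) in BRC and 33.7% (32.2 to 35.2) in ddH2O had a Dop1 UMI, 25.6% (23.8 to 27.4) and 24.1% (22.8 to 25.4) a Dop2 UMI, and 59.1% (57.1 to 61.1) and 46.4% (44.8 to 47.9) a Dop3 UMI. Without thinning these shares were 58.4% in BRC and 68.2% in ddH2O for Dop1, 37.0% and 54.8% for Dop2, and 68.8% and 78.3% for Dop3, so the order of the libraries turned with depth. Of glia, 3.56% in BRC and 15.96% in ddH2O had a Dop1 UMI, 3.63% and 12.1% a Dop2 UMI, and 29.99% and 33.1% a Dop3 UMI. For comparison, the BRC clusters 3, 4, 7 and 20, in neither class, were taken. Cluster 4 had a pan-neuronal score of 0.572 of the highest in BRC, so it is not a background free of neuronal RNA. Cluster 20, with 292 nuclei and a median of 8639 UMIs before thinning, gave 2.74% (1.19 to 5.33) for Dop1, 1.37% (0.375 to 3.47) for Dop2 and 1.03% (0.212 to 2.97) for Dop3. Cluster 7, with 2031 nuclei and a median of 2454 UMIs, gave 1.38% (0.918 to 1.99), 0.542% (0.271 to 0.967) and 0.394% (0.1702 to 0.775). Cluster 4, with 2068 nuclei and a median of 2253 UMIs, gave 3.68% (2.91 to 4.58), 1.69% (1.18 to 2.35) and 4.79% (3.91 to 5.80). Cluster 3, with 2491 nuclei and a median of 1775 UMIs, gave 4.05% (3.31 to 4.91), 2.05% (1.53 to 2.68) and 2.25% (1.70 to 2.91). The glia of BRC had a median of 1754 UMIs. Their Dop1 share, with an interval of 2.89% to 4.33%, overlapped clusters 3, 4 and 20 and lay above cluster 7. Their Dop2 share, 2.95% to 4.41%, overlapped cluster 20 and lay above clusters 3, 4 and 7. Since this turns with the cluster chosen, neither is read as expression. Their Dop3 share lay above clusters 3, 4, 7 and 20. No ddH2O cluster of other tissue gave such a comparison.

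**Figure D3:**
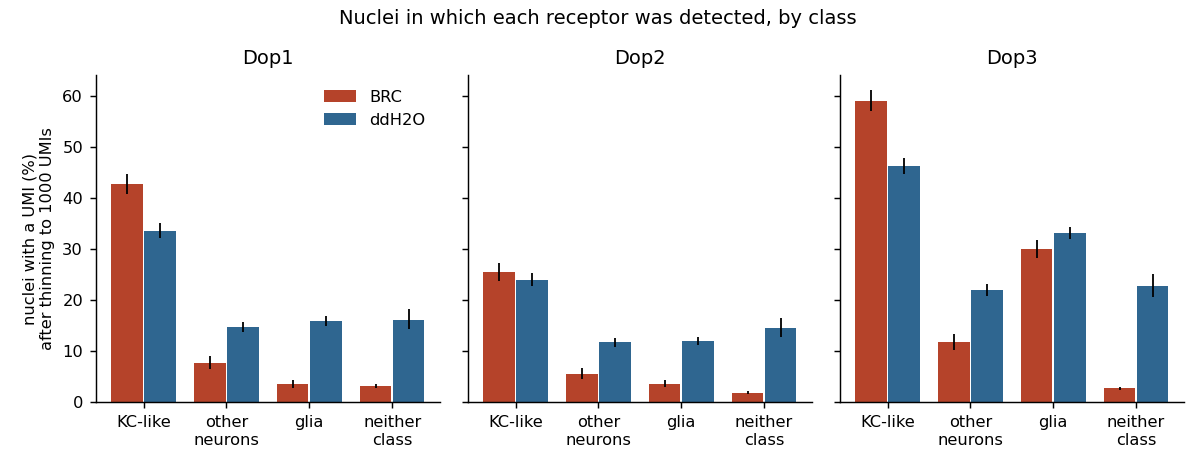
Share of nuclei with at least 1 UMI of each receptor after thinning to 1000 UMIs, by class, BRC left of ddH2O, with bars for exact Clopper-Pearson 95% intervals. KC-like nuclei have the highest share for each receptor, up to 59.1% for Dop3 in BRC, and for glia the bars of the libraries lie closest for Dop3, with 29.99% in BRC and 33.1% in ddH2O.

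The spread of UMIs over nuclei differed between the receptors. In cluster 2 of BRC the thinned Dop1 counts had a variance 1.09 times their mean, close to that of independent counts, and the value in ddH2O was 1.05. For Dop2 the same ratio was 1.66 in BRC and 1.10 in ddH2O, and 45 of 1480 nuclei (3.04%) in BRC but 9 of 1127 (0.799%) in ddH2O had 3 or more Dop2 UMIs, and 7 was the most. These 45 nuclei were chosen by Dop2, and the other genes in them give an independent view. They had 535 CPM of Dop1, 1712 CPM of Dop3 and 21649 CPM of PLCe, against 565, 2031 and 28417 CPM in the cluster's nuclei without a Dop2 UMI. For Dop3 the variance was 1.87 times the mean in cluster 2 of BRC and 1.24 times in ddH2O, and the nuclei with 3 or more UMIs were 31.8% in BRC and 11.1% in ddH2O. In cluster 1 the ratio was 2.06 in BRC and 1.36 in ddH2O. The mean thinned count in cluster 2 of BRC was 0.585 for Dop1, 0.390 for Dop2 and 1.96 for Dop3. The ratio and the share with 3 or more UMIs can both rise with the mean, so they do not rank the receptors by unevenness.

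In KC-like nuclei the receptors met in the same nuclei about as often as their single shares within clusters give. In KC-like nuclei of BRC, 275 had UMIs of Dop1 and Dop2, where 257 were expected (ratio 1.07, 0.946 to 1.203), and in ddH2O the ratio was 1.03 (0.925 to 1.15). For Dop1 and Dop3, 624 nuclei were found and 595 expected in BRC (1.05, 0.968 to 1.13), and the ddH2O ratio was 1.02 (0.944 to 1.10). For Dop2 and Dop3, 357 were found and 360 expected in BRC (0.992, 0.892 to 1.10), and the ddH2O ratio was 1.05 (0.954 to 1.14). All 6 intervals include 1. Of KC-like nuclei with Dop1, 62.0% in BRC and 48.4% in ddH2O also had Dop3, and of those with Dop3, 44.9% and 35.2% also had Dop1.

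Counting receptors per thinned nucleus, none was found in 18.4% of KC-like nuclei in BRC and 28.1% in ddH2O. A single receptor was found in 43.2% and 44.1%, 2 receptors in 30.95% and 23.4%, and all 3 in 7.48% and 4.40%, which are 176 and 177 nuclei. In other neurons 77.6% in BRC and 59.5% in ddH2O had none. Other neurons thus lacked a detected receptor more often than KC-like nuclei did, although a missing UMI at 1000 UMIs does not show that a receptor was absent. In cluster 2 of BRC, 9.19% of the nuclei had all 3.

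Outside the KC-like nuclei some pairs were found more often than the single shares give. In ddH2O glia the ratio was 1.38 (1.19 to 1.61) for Dop1 and Dop2, 1.23 (1.11 to 1.36) for Dop1 and Dop3 and 1.14 (1.004 to 1.28) for Dop2 and Dop3. In ddH2O other neurons it was 1.35 (1.12 to 1.61) for Dop1 and Dop2, and the intervals of the other pairs include 1, as do those of all 3 pairs in ddH2O nuclei in neither class, with 1.22 (0.877 to 1.64), 1.18 (0.909 to 1.51) and 1.02 (0.759 to 1.33). In BRC nuclei in neither class, 13 had Dop2 and Dop3, where 6.12 were expected (2.12, 1.13 to 3.63). The other 8 of the 9 BRC intervals outside the KC-like nuclei include 1. In BRC glia only 1 nucleus had Dop1 and Dop2, where 3.88 were expected (0.258, 0.00653 to 1.44), and 35 had Dop1 and Dop3, where 31.3 were expected (1.12, 0.779 to 1.56). Doublets that were not removed and free RNA also give joint detection, and their part was not tested.

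**Figure D4:**
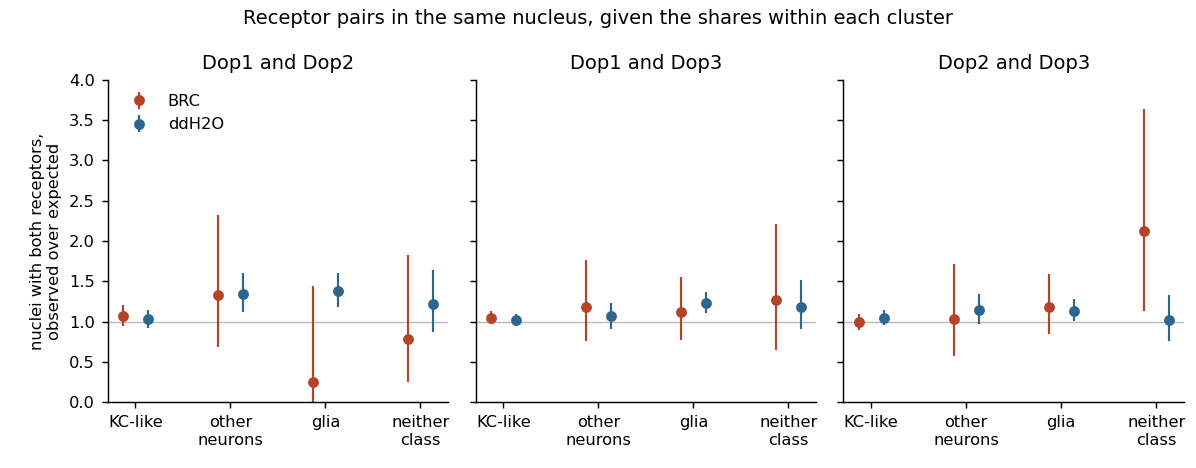
Nuclei with UMIs of both receptors of a pair, divided by the number expected from the single shares within each cluster, by class, BRC left of ddH2O, with exact 95% intervals and a line at 1. All KC-like values lie between 0.992 and 1.07, and the values for Dop1 and Dop2 in ddH2O reach 1.35 in other neurons and 1.38 in glia. The value for Dop2 and Dop3 in BRC nuclei in neither class is 2.12.

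The comparison of BRC with ddH2O asked whether the receptor genes differed after exposure to the agonist. With 1 library per condition the ratios describe these libraries, and no test across samples was possible. In neurons Dop1 stood at 354 CPM in BRC and 280 CPM in ddH2O, a log2 ratio of 0.34 (0.28 to 0.40). Dop2 stood at 211 CPM in BRC and 207 CPM in ddH2O, a log2 ratio of 0.03 (-0.04 to 0.11), which includes 0. Dop3 stood at 867 CPM in BRC and 499 CPM in ddH2O, a log2 ratio of 0.80 (0.76 to 0.84). The median over all genes in neurons was -0.04, and none of the 3 receptors differed by 2-fold or more, where 10.9% of the 9187 genes with at least 100 UMIs did. The sign for Dop1 turned with means of log-normalized values, to -0.068, and the ratio was 0.16 with doublets kept. Dop2 lay below 0 with both of these, at -0.41 and -0.075, and Dop3 above 0, at 0.053 and 0.62.

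The mix of neuronal clusters differed between the libraries. Cluster 2 made up 35.3% of the neurons in BRC and 12.2% in ddH2O, cluster 1 made up 20.8% and 31.5%, and cluster 8 made up 7.15% and 13.7%. With the clusters weighted alike in both libraries, the log2 ratio was 0.15 for Dop1, -0.24 for Dop2 and 0.21 for Dop3. In KC-like nuclei alone the log2 ratio was 0.49 (0.43 to 0.56) for Dop1, 0.24 (0.16 to 0.33) for Dop2 and 0.97 (0.93 to 1.02) for Dop3, beside a median of -0.14 over all genes. PLCe had 1.04 and mub 1.201 in the same nuclei. None of the receptors reached 2-fold there, where 14.8% of the 7986 genes did, 9.23% lower and 5.56% higher. In other neurons all 3 were lower in BRC, with -0.83 for Dop1, -1.15 for Dop2 and -0.56 for Dop3, beside -2.21 for PLCe and 0.25 for mub. The part of the neuronal ratios that goes with the cluster mix or with Kenyon cell RNA outside its cells was not tested further.

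Single KC-like clusters gave different pictures for the receptors. In cluster 2, Dop1 and Dop2 were nearly level between the libraries, with log2 ratios of 0.10 (-0.0013 to 0.19) and 0.07 (-0.05 to 0.19), while Dop3 had 0.85 (0.79 to 0.91), beside 0.76 for PLCe and 1.05 for mub. In cluster 1, Dop1 had 0.74 (0.64 to 0.85), Dop2 0.18 (0.03 to 0.32) and Dop3 -0.11 (-0.22 to -0.0078), beside 0.84 for PLCe and 1.15 for mub. Cluster 1 is itself a mixture. At a resolution of 1.0 it held a finer cluster with 811 BRC and 813 ddH2O nuclei and another with 55 BRC and 1970 ddH2O nuclei. In the finer cluster shared by both libraries, Dop1 stood at 672 CPM in BRC and 501 CPM in ddH2O, a log2 ratio of 0.42 (0.30 to 0.55), and Dop2 at 327 and 369 CPM, a ratio of -0.17 (-0.34 to -0.0045). Dop3 stood there at 608 CPM in BRC and 536 CPM in ddH2O, a log2 ratio of 0.18 (0.05 to 0.31), so for Dop2 and Dop3 the sign in cluster 1 turned when its finer parts were separated.

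Glia showed a different order of the receptors. Dop1 stood at 39.5 CPM (34.6 to 44.8) in BRC and 174 CPM (168 to 179) in ddH2O, so the log2 ratio was -2.14 (-2.33 to -1.95), and Dop2 at 32.2 CPM (27.8 to 37.1) and 129 CPM (125 to 134), a ratio of -2.00 (-2.22 to -1.79). These 2 of the 3 receptors were lower by at least 2-fold, where 11.2% of the 9000 genes were, and 11.8% were higher, 23% in either direction. PLCe had -3.39 in the same nuclei, and whether these ratios go together was not tested. Dop3 stood at 560 CPM in BRC and 498 CPM in ddH2O, a log2 ratio of 0.17 (0.11 to 0.23) beside a median of 0.11 over all genes. Its sign turned with nuclei thinned to 1000 UMIs, to -0.038, and with means of log-normalized values, to -0.36, and the ratio was 0.049 with doublets kept.

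The glial Dop3 ratio was made of clusters that differed in sign. It was higher in BRC in cluster 9, with a log2 ratio of 0.82 (0.73 to 0.91), in cluster 10, with 0.67 (0.55 to 0.78), and in cluster 12, with 0.38 (0.20 to 0.56). It was lower in cluster 5, with -0.66 (-0.83 to -0.49), in cluster 14, with -1.28 (-1.70 to -0.88), and in cluster 6, with -2.67 (-3.07 to -2.30). The clusters with the higher Dop3 level in each library were those with a positive ratio. Cluster 9 made up 7.68% of the glia in BRC and 19.7% in ddH2O, and cluster 10 made up 22.5% and 13.1%. Dop1 and Dop2 were lower in BRC in all 6 of these clusters, with log2 ratios of -3.41 to -0.77 for Dop1 and -3.12 to -1.38 for Dop2. Over all nuclei the log2 ratios were -1.18 for Dop1, -1.43 for Dop2 and -0.71 for Dop3, and there the share of neurons, 26.4% in BRC and 55.0% in ddH2O, differed too.

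**Figure D5:**
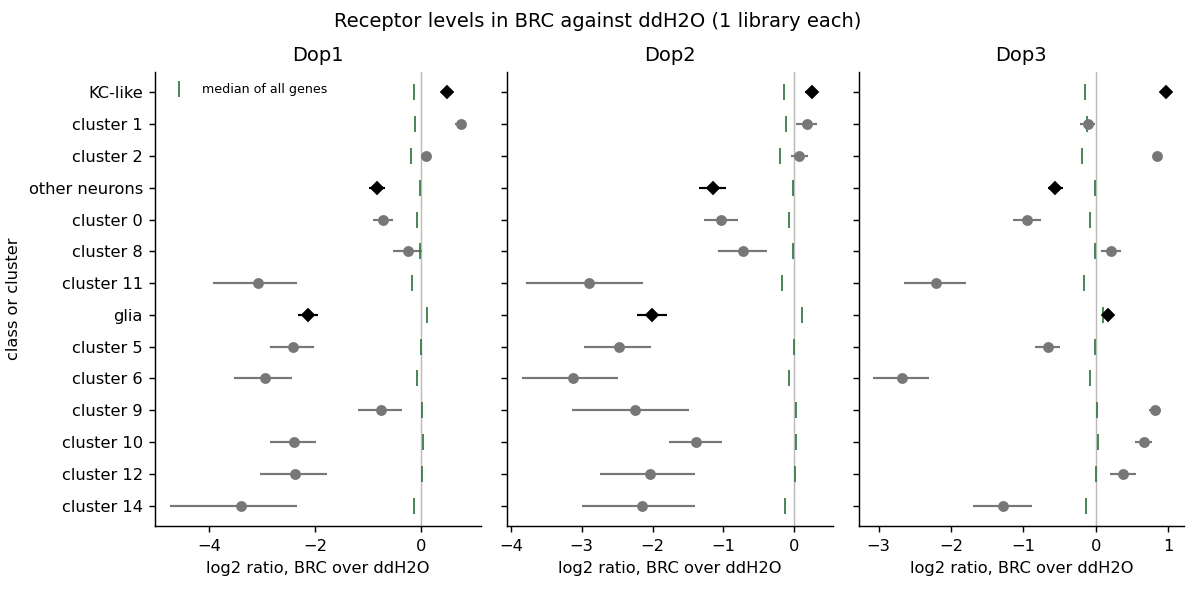
Log2 ratio of BRC over ddH2O for each receptor, by class (black diamonds) and by cluster (grey circles), with exact 95% intervals for counting error and green marks for the median of all genes in the same nuclei. Dop1 and Dop2 lie left of 0 in each glial cluster, whereas Dop3 lies right of 0 in clusters 9, 10 and 12 and left of 0 in clusters 5, 6 and 14.

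Of the listed genes of dopamine handling and signalling, 5 were matched by name. Dat, the dopamine transporter of the cell membrane, had 19.1 CPM in BRC and 7.001 CPM in ddH2O in neurons (log2 ratio 1.44), and 15.4 and 3.101 CPM in glia (2.32). The glial values rest on 92 and 70 UMIs. Nuclei in neither class had 88.2 CPM in BRC and 9.33 CPM in ddH2O. Cluster 3, with 2491 BRC but 61 ddH2O nuclei, held 1435 of the 2370 Dat UMIs of BRC. Vmat, which loads monoamines into vesicles, had 55.6 and 33.2 CPM in neurons (0.74) and 188 and 92.6 CPM in glia (1.02). In nuclei in neither class Vmat had 211 CPM in BRC and 64.5 CPM in ddH2O. The enzyme gene ebony, whose product couples dopamine to beta-alanine in glia, had 101 and 198 CPM in neurons (-0.97) and 2560 and 957 CPM in glia (1.42). Its glial clusters differed in sign, with 2.02 in cluster 14, 1.42 in cluster 5 and 0.42 in cluster 10. The ratio was -0.20 in cluster 6, -0.86 in cluster 9 and -0.22 in cluster 12. Cluster 14 held 9348 of the 15248 ebony UMIs of BRC glia. Downstream of the receptors, the adenylyl cyclase gene Ac3 had 172 and 286 CPM in neurons (-0.74) and 29.2 and 152 CPM in glia (-2.38). PKA-c1, the catalytic subunit of protein kinase A, had 997 and 960 CPM in neurons (0.05) and 793 and 1088 CPM in glia (-0.46). In neurons 1 of the 5 genes was at least 2-fold higher in BRC, where 6.05% of the 9187 genes were, and none was 2-fold lower, where 4.8% were. In glia 3 were at least 2-fold higher, where 11.8% of the 9000 genes were, and 1 was lower, where 11.2% were. The median log2 ratio of the list was 0.05 in neurons and 1.02 in glia, beside -0.04 and 0.11 over all genes.

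Across clusters Dop1 and Dop2 were more like each other than either was like Dop3. As a description over clusters of 1 library, which share its depth and its free RNA, Pearson's r of log2(CPM + 5) between Dop1 and Dop2 was 0.88 over 20 clusters in BRC and 0.85 over 17 in ddH2O. Between Dop1 and Dop3 it was 0.63 in BRC and 0.37 in ddH2O, and between Dop2 and Dop3 0.69 and 0.29. Of 6772 genes in BRC, PLCe was the gene most like Dop2 (r = 0.91), and LOC726347 the gene most like Dop1 (r = 0.92). All but PLCe of the 18 nearest genes named by this rule carried only an identifier. The pattern of each receptor over the 13 clusters with at least 100 nuclei in both libraries was related between the libraries, with r of 0.64 for Dop1, 0.79 for Dop2 and 0.90 for Dop3.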

How the data were processed

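The authors counted UMIs per gene and barcode with Cell Ranger on Amel_HAv3.1 and deposited these counts without normalization. The submitters' notes name version 7.0.1, and the file headers 7.2.0 for BRC and 7.0.1 for ddH2O. The receptors and gene lists were chosen with earlier results of these data known. Barcodes passed at a ratio of log10 genes to log10 UMIs above 0.85, with 200 to 5000 genes and less than 5% mitochondrial UMIs. Likely doublets were scored as Scrublet does and removed at 0.8% per 1000 nuclei (2795 in BRC, 3160 in ddH2O). The nuclei kept share 79 barcodes.

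Seurat 5.3.0 (SeuratObject 5.2.0, R 4.3.3) integrated both libraries by CCA on 2000 variable features, without the receptors and pathway genes, and 50 components, and clustered at a resolution of 0.5. A cluster was called glial where repo was at least 2-fold above the median cluster, and neuronal where it was not and the pan-neuronal score reached 50% of the library's highest, in each library with 20 or more of its nuclei. Among its 10 leading genes, markers of other tissue or of the other class were not to outnumber those of its own. This last condition kept cluster 4, 13.0% of the nuclei in BRC and 2.04% in ddH2O, out of the neurons. These limits were set after seeing the data, and the other clusters are in neither class. The remaining steps used Python 3.11.15, numpy 2.4.6, scipy 1.17.1, pandas 2.3.3, scikit-learn 1.9.0 and matplotlib 3.10.9. Intervals are exact Poisson, conditional or Clopper-Pearson at 95%, and their code was tested on simulated counts. A gene was counted as differing at 2-fold or more, given at least 100 UMIs over both libraries. Named genes are the members, the pathway genes with 100 UMIs in a class and, per receptor and library, the 3 genes most like it among those with 500 UMIs, over clusters with at least 100 nuclei. Genes with only an identifier were limited to 2 among these last, and the overlapping genes were named from their position. Alternatives were doublets kept, no integration, resolution 1.0, thinning to 1000 or 500 UMIs, median-of-ratios scaling, means of log-normalized values and other expected pair counts. Clusters weighted alike, finer clusters and pairs within PLCe count were added after seeing the data.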

Additional observations from a re-analysis of the deposited data

Results flagged for a closer look

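For Dop1, neurons and glia lay on opposite sides of 0. The log2 ratio of BRC over ddH2O was 0.34 in neurons, with 354 CPM in BRC and 280 CPM in ddH2O, and -2.14 in glia, with 39.5 and 174 CPM. With means of log-normalized values the neuronal value was -0.068, so that both classes lay below 0, and with doublets kept it was 0.16. For Dop2 it was 0.033 in neurons, where the interval includes 0, and -2.00 in glia. Each class rests on 1 library per condition, so the difference between neurons and glia was not tested. PLCe moved the same way, with 0.95 in neurons and -3.39 in glia, and its part was not tested.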

How the results depend on the processing

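No paired analysis was possible because there is 1 library per condition and the labels carry no replicate numbers, and for the same reason no library could be left out. Of 78 values for ratios and joint detection, 50 moved by less than their counting interval, 25 by more, and 3 turned their sign. Among the 25, Dop2 in neurons, whose interval includes 0, also changed sign under 3 alternatives. With doublets kept, the neuronal log2 ratios were 0.16 for Dop1, -0.075 for Dop2 and 0.62 for Dop3, and the glial ones -1.57, -1.57 and 0.049. With nuclei thinned to 1000 UMIs, the neuronal values were 0.42, 0.18 and 0.88, and Dop3 in glia turned to -0.038. Means of log-normalized values turned Dop1 in neurons to -0.068 and Dop3 in glia to -0.36, and gave -0.41 for Dop2 and 0.053 for Dop3 in neurons and -2.40 for Dop1 in glia. With clusters weighted alike, the neuronal values were 0.15, -0.24 and 0.21, and in glia -2.23 for Dop2 and 0.27 for Dop3. Dop3 in glia was also 0.23 without integration and 0.062 with median-of-ratios scaling. Pairs expected within the class of neurons rather than within clusters gave 1.49 for Dop1 and Dop2, 1.47 for Dop1 and Dop3 and 1.38 for Dop2 and Dop3 in BRC, and 1.27, 1.201 and 1.22 in ddH2O. Resolution 1.0 moved none of these values past its interval. Dop1 and Dop2 stayed below 0 in glia in each of the alternatives run, and Dop3 above 0 in neurons. The cause of each shift was not tested. Of 38 values for shares and the pathway list, 36 moved, all of them shares with thinning. Only 3.88 to 36.5 nuclei per pair were expected outside the KC-like nuclei of BRC, which gives wide intervals.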
